A study of Drosophila melanogaster with 15 samples.

Results

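Apolpp, Apoltp, bmm and Lsd-1 are 4 Drosophila melanogaster genes that act in the transport of lipid through the blood or in the storage of lipid inside cells. They were taken as every row of the value table annotated to exactly 1 gene with one of these symbols, which gave 6 of the 14051 measured rows and 4 of the 9894 named genes. Apolpp, Apoltp and bmm had 1 row each and Lsd-1 had 3, which were averaged. The study compared 5 larval tissues with whole animals on 15 two-colour microarrays, 3 per tissue. Midgut, salivary gland, wing disc, central nervous system (CNS) and epidermis were dissected, the last with the body wall muscle attached to it. All of them, and the whole-animal reference, came from Canton S larvae at about 18 hours before pupariation. Each array carried 1 tissue sample in the red dye Cy5 and the whole-animal reference in the green dye Cy3, with no dye swap, so a bias of the dyes for a gene remains in its ratio to the whole animal but cancels between tissues. Per the labels the 3 samples of a tissue were independent. The labels do not give how many animals each sample pooled, so the p-values measure the spread between these samples.

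Values are log2 ratios of tissue over whole animal after each array was set to a median of 0, so that a value of -1 lies 1 log2 unit below the median row of its array. Wherever an adjusted p is given, it is that of limma with Benjamini-Hochberg adjustment over all features of the comparison, and a result passed the test at an adjusted p below 0.05. The tissue labels were compared with marker genes. The marker lists used here were chosen with earlier results of these data known, so they give no independent check of the labels. All 15 measured midgut markers, all 6 salivary gland markers, all 4 wing disc markers that could be tested, 8 of 9 muscle markers in epidermis, 6 of 8 cuticle markers and 5 of 7 nervous system markers were highest in their own tissue. The number of measured rows ran from 7747 on epidermis replicate 3 to 13505 on epidermis replicate 2. Each of the 4 genes was measured on all 15 arrays, apart from Apoltp, which had no value on wing disc replicate 3.

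In insects lipid travels through the hemolymph on lipophorin, a particle built on the cleaved product of apolpp. The particle is assembled in the fat body, the tissue that combines the roles of liver and adipose store, and is then loaded with lipid at the gut with the help of the lipid transfer particle, whose scaffold protein is encoded by Apoltp. Within cells, triglyceride is kept in lipid droplets. Brummer, the product of bmm, is the Drosophila counterpart of the mammalian adipose triglyceride lipase and releases fatty acids from droplets. Lsd-1, also called perilipin 1, is a coat protein of droplets that governs the access of lipases to the stored lipid. Fat body was not among the dissected tissues but is part of the whole-animal reference.

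The level of apolpp, Apoltp and Lsd-1 was below that of the whole animal in all 5 tissues, while bmm was above it in midgut and below it in the other 4. All 20 of these gene and tissue combinations passed the test. Among 8432 features measured in every tissue, 2.36% were below the whole animal in all 5 tissues with each difference past the test, and 2.79% had the pattern of bmm. For single tissues the share of features below the whole animal and past the test was 12.5% for epidermis, 15.1% for midgut, 18.6% for salivary gland, 20.6% for wing disc and 21.3% for CNS, and the share above it was 13.7% for midgut. In such whole-tissue RNA a lower ratio can come from fewer cells of an expressing type or from less RNA per cell, and these cannot be told apart.

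**Figure D1:**
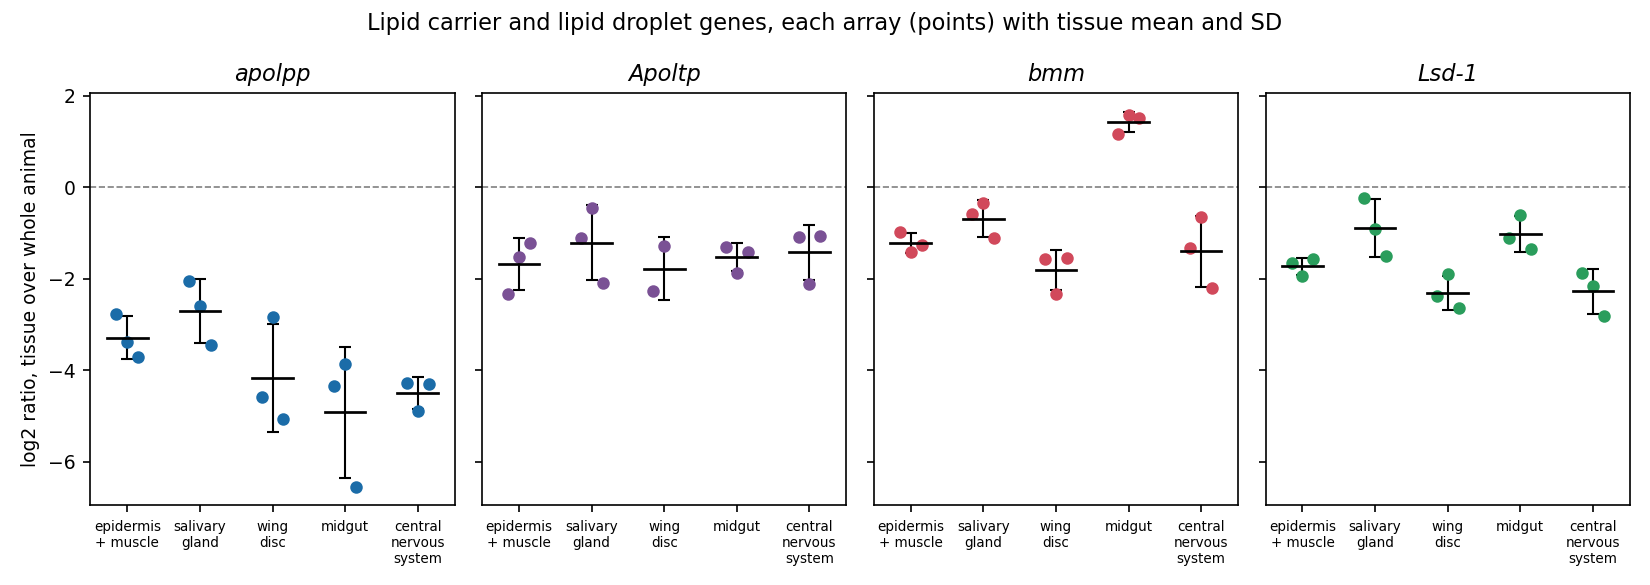
Log2 ratio of tissue over whole animal (vertical axis, centred on each array's median) for apolpp, Apoltp, bmm and Lsd-1, with 1 panel per gene; points are the arrays of each tissue, long bars the tissue means and whiskers 1 SD. The 3 midgut arrays of bmm, at 1.17 to 1.58, are the only points above the dashed line of the whole animal, and every apolpp point lies at -2.06 or lower.

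Apolpp, the lipophorin scaffold, had the lowest ratios of the 4 genes. In epidermis its log2 ratio was -2.77, -3.38 and -3.71 on the 3 arrays. In salivary gland it was -2.06, -2.61 and -3.46. In wing disc it was -4.59, -2.84 and -5.08. The wing disc arrays therefore spanned more than 2 log2 units, and their highest value lay within the range of epidermis. In midgut the ratio was -4.34, -3.87 and -6.55, and in CNS it was -4.29, -4.90 and -4.31. The midgut mean of -4.92 (SD 1.43, n = 3) was 30.3-fold below the whole animal (adjusted p = 8.81e-07), with 0 of 11354 features lower in that tissue. Without midgut replicate 3, a choice made after its value was seen, the mean was -4.11 or 17.2-fold below, with 6 features lower. The salivary gland mean of -2.71 (SD 0.704, n = 3) was the highest of the 5, and was still 6.54-fold below the whole animal (adjusted p = 0.00024). Averaged over the 5 tissues, apolpp stood at -3.92 and 2 of 8432 features were lower, or 5 without that midgut array.

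Among tissues apolpp ranked salivary gland, epidermis, wing disc, CNS and midgut from high to low, and no neighbours in that order differed past the test. Over the 5 tissues the F test gave an adjusted p of 0.0381 for apolpp, in a comparison in which 44.5% of features passed, and it missed the threshold in 5 of 15 fits that each left out 1 array (adjusted p = 0.109 without salivary gland replicate 1). In salivary gland apolpp was higher than the mean of the other 4 tissues by 1.51 log2 units (SE 0.492, adjusted p = 0.0433), a direction and a test that 7.72% of features met. Midgut lay below the other tissues by a log2 difference of -1.25 (95% interval -2.30 to -0.21) at an adjusted p of 0.0669. Of the 10 pairs of tissues, salivary gland against midgut alone passed, with a difference of 2.21 log2 units or 4.63-fold (adjusted p = 0.0225; 6.23% of features were higher in salivary gland than in midgut in this sense). That difference fell to 1.40 (adjusted p = 0.12) without midgut replicate 3, and it missed the threshold without salivary gland replicate 1 (1.89, adjusted p = 0.0944) or replicate 2 (2.16, adjusted p = 0.053). The difference of salivary gland from the other 4 tissues missed the threshold in 8 of 15 fits that each left out 1 array, and was 1.18 (adjusted p = 0.227) without salivary gland replicate 1. The array rows do not say which part of a gene they cover. The current record of apolpp overlaps that of Zyx, which was not analysed here.

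Apoltp, the scaffold gene of the lipid transfer particle, was also below the whole animal everywhere, but did not differ past the test among tissues. In epidermis the ratio was -2.33, -1.52 and -1.23, and in salivary gland it was -1.12, -0.46 and -2.09. In wing disc it was -2.27 and -1.29 on the 2 arrays with a value. In midgut it was -1.30, -1.88 and -1.41, and in CNS it was -1.09, -2.11 and -1.08. The ranges of all 5 tissues overlapped. Means ran from -1.78 in wing disc (SD 0.691, n = 2; adjusted p against the whole animal 0.0014) to -1.22 in salivary gland (SD 0.82, n = 3; adjusted p 0.00608), which is 3.43-fold to 2.33-fold below the whole animal. The salivary gland value missed the threshold without salivary gland replicate 3 (-0.79, adjusted p = 0.0948).

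The F test gave no difference among tissues for Apoltp (adjusted p = 0.808), and 0 of its 10 pairs of tissues passed, with adjusted p between 0.48 and 0.949. Its means differed between tissues by 0.09 to 0.55 log2 units. The 95% intervals of these differences reached 1.57 log2 units, so they leave room for a difference of up to 2.97-fold between a pair of tissues. Of all 8432 features, 21.6% had a smaller range of tissue means than Apoltp, against 86.5% for apolpp.

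Bmm, the triglyceride lipase gene, separated midgut from the other tissues. Its midgut arrays were at 1.17, 1.58 and 1.5. In epidermis the ratio was -0.99, -1.43 and -1.26, and in salivary gland it was -0.59, -0.35 and -1.12. In wing disc it was -1.58, -2.33 and -1.56, and in CNS it was -1.33, -0.66 and -2.21. Each midgut array was above each of the 12 other arrays, which held for 12.5% of the 4540 features measured on all arrays. The midgut mean of 1.42 (SD 0.216, n = 3) was 2.67-fold above the whole animal (adjusted p = 0.000439). The wing disc mean of -1.82 (SD 0.438, n = 3) was the lowest, 3.53-fold below the whole animal. The weakest departure from the whole animal was in salivary gland, at -0.69 (SD 0.397, n = 3; adjusted p = 0.036), and it missed the threshold without salivary gland replicate 1 (-0.74, adjusted p = 0.0783) or replicate 3 (-0.47, adjusted p = 0.255).

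Against the mean of the other 4 tissues, bmm was higher in midgut by 2.70 log2 units (SE 0.269, adjusted p = 1.1e-06), or 6.5-fold. The F test over tissues gave an adjusted p of 7.99e-06. Of all features, 14.2% were higher in midgut in this comparison, and 258 of 8432 (3.06%) had a larger midgut difference than bmm. Midgut exceeded wing disc by 3.24 log2 units or 9.42-fold (adjusted p = 2.9e-06), CNS by 2.82 or 7.05-fold (adjusted p = 1.28e-05), epidermis by 2.65 or 6.26-fold (adjusted p = 2.43e-05) and salivary gland by 2.10 or 4.3-fold (adjusted p = 0.000321). The shares of features higher in midgut in these 4 comparisons were 12.6%, 12.6%, 8.45% and 8.55%. Among the other tissues, salivary gland exceeded wing disc by 1.13 log2 units (adjusted p = 0.0286; 8.28% of features were higher in salivary gland), which missed the threshold without wing disc replicate 2 (0.88, adjusted p = 0.124) or without salivary gland replicate 1 (1.08) or 2 (0.96). Bmm was lower in wing disc than in the other 4 tissues by a log2 difference of -1.34 (adjusted p = 0.00222; 10.3% of features were lower in wing disc) and in CNS by -0.82 (adjusted p = 0.0389; 10.2% of features were lower in CNS). The CNS value missed the threshold in 8 of 15 fits that each left out 1 array, and was -0.41 (adjusted p = 0.339) without CNS replicate 3. In the order midgut, salivary gland, epidermis, CNS and wing disc, midgut and salivary gland were the only neighbours that differed past the test.

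Lsd-1, the droplet coat gene, was higher in salivary gland and midgut than in wing disc and CNS, below the whole animal throughout. In salivary gland the ratio was -0.24, -0.92 and -1.51, and in midgut it was -1.11, -0.60 and -1.36. In epidermis it was -1.67, -1.94 and -1.57. In wing disc it was -2.38, -1.91 and -2.64, and in CNS it was -1.87, -2.16 and -2.82. The salivary gland and midgut arrays overlapped each other, and all 6 lay above every array of the other tissues. The margin was narrow, with -1.51 in salivary gland against -1.57 in epidermis. Neither salivary gland nor midgut differed from epidermis past the test (adjusted p = 0.132 and 0.184). The share of all features with such a separation is not given here. Means were -0.89 in salivary gland (SD 0.633, n = 3), -1.02 in midgut (SD 0.389, n = 3), -1.73 in epidermis (SD 0.189, n = 3), -2.28 in CNS (SD 0.489, n = 3) and -2.31 in wing disc (SD 0.366, n = 3). Wing disc was thus 4.96-fold and salivary gland 1.85-fold below the whole animal. The salivary gland value missed the threshold without its replicate 3 (-0.58, adjusted p = 0.125), and the midgut value without its replicate 3 (-0.85, adjusted p = 0.0543).

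For Lsd-1 the F test over tissues passed (adjusted p = 0.00307). Salivary gland exceeded wing disc by 1.42 log2 units (adjusted p = 0.00604) and CNS by 1.39 (adjusted p = 0.00652; 7.73% of features were higher in salivary gland than in CNS). Midgut exceeded wing disc by 1.29 (adjusted p = 0.00805) and CNS by 1.26 (adjusted p = 0.00892). The other 6 pairs missed the threshold, as did all neighbours in the order of means. Against the other 4 tissues the gene was higher in salivary gland by 0.95 (SE 0.261, adjusted p = 0.0188) and in midgut by 0.78 (SE 0.261, adjusted p = 0.0325), and lower in wing disc by -0.83 (adjusted p = 0.0329) and in CNS by -0.80 (adjusted p = 0.0387). Each of these 4 values missed the threshold without at least 1 array. The largest losses were 0.62 in salivary gland (adjusted p = 0.18) without its replicate 1, 0.57 in midgut (adjusted p = 0.198) without its replicate 2, -0.67 in wing disc (adjusted p = 0.172) without its replicate 3 and -0.53 in CNS (adjusted p = 0.26) without its replicate 3. In epidermis none of the 4 genes passed against the other 4 tissues, where 11.7% of all features passed in either direction.

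**Figure D2:**
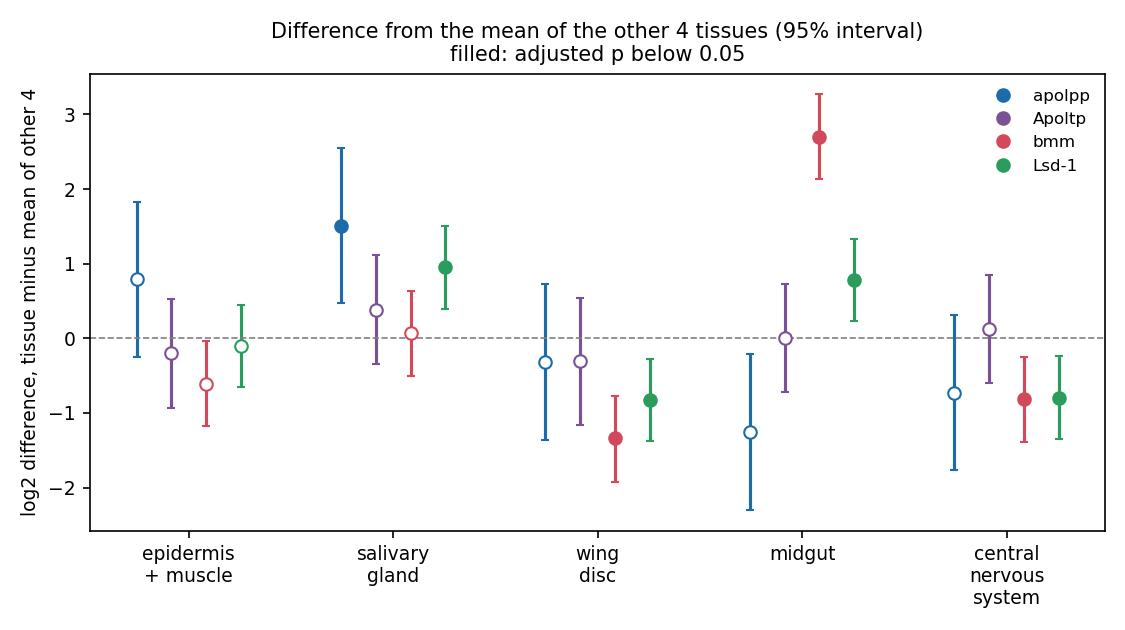
Log2 difference of each tissue from the mean of the other 4 tissues (vertical axis) by tissue for the 4 genes (colours), with 95% intervals from limma; filled points passed the test at an adjusted p below 0.05. The midgut value of bmm, at 2.70, stands apart from all others, and every interval of Apoltp includes 0.

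The means of the 3 rows of Lsd-1 lay furthest apart in wing disc, though the ranges of their arrays overlapped. The rows were not tested against each other. Row 1 averaged -1.54 there (SD 0.818, n = 3), against -2.67 (SD 0.885, n = 3) for row 2 and -2.72 (SD 0.297, n = 3) for row 3. On wing disc replicate 3 the rows lay 2.31 log2 units apart, the widest spread of the 15 arrays, and on CNS replicate 2 they lay 0.02 apart. In salivary gland (-0.98, -0.89 and -0.79) and midgut (-1.18, -0.90 and -0.98) the rows had like means. In epidermis the arrays of row 1, at -1.47 to -1.39, lay above all those of row 2 (-2.26 to -1.62) and row 3 (-2.16 to -1.66). Over the 15 arrays rows 2 and 3 correlated at r = 0.908, row 1 with row 2 at 0.346 and row 1 with row 3 at 0.609. Fitted on its own, row 1 passed neither the F test (adjusted p = 0.199) nor any of the 8 differences between tissues that the average passed, and its wing disc value was -0.04 from the other tissues (adjusted p = 0.957). Row 2 kept 7 of the 8 and row 3 all of them. The current record of Lsd-1 overlaps that of CG10214, whose own means ran from -0.49 in epidermis to 0.06 in CNS.

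**Figure D3:**
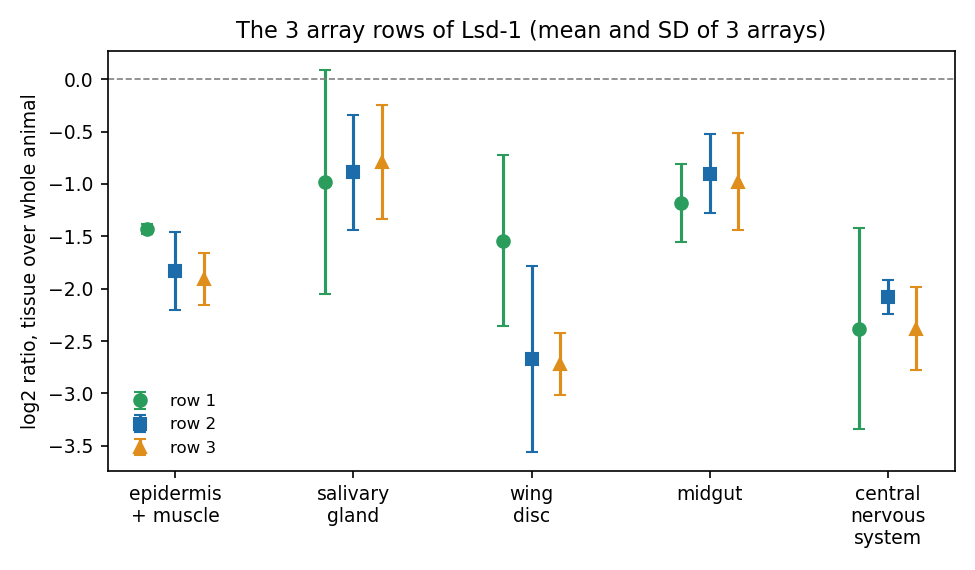
Mean log2 ratio of tissue over whole animal (vertical axis) for each of the 3 array rows of Lsd-1 (colours and symbols) by tissue, with whiskers of 1 SD over 3 arrays. The mean of row 1 lies above those of rows 2 and 3 in wing disc, at -1.54 against -2.67 and -2.72. The whiskers of rows 1 and 2 overlap there. In epidermis the mean of row 1 is -1.43, against -1.83 and -1.91. The whiskers of the 3 rows overlap in salivary gland and midgut.

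The gap of apolpp to bmm averaged -6.34 log2 units on the midgut arrays, against -2.38 on the other 12. Relative to the other arrays, the midgut gap differed by 1.92 log2 units for bmm over Lsd-1, by -2.70 for Apoltp over bmm and by -2.03 for apolpp over Lsd-1. No test is given for these gaps, which follow from the midgut levels above. Over the 15 arrays, as a description of points that share a tissue in threes, bmm and Lsd-1 correlated at r = 0.664 (Spearman's rho 0.814), apolpp and Lsd-1 at 0.424, and apolpp and bmm at -0.314.

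Fat body markers varied among the dissected tissues as well. Of 11 marker genes, 7 were measured, and all 7 passed the F test, as did 44.5% of all features. Against the other 4 tissues 5 were higher in salivary gland (7.72% of all features) and 2 in epidermis (8.11%). Lower were 2 in wing disc (10.3% of all features), 1 in midgut (15.5%) and 4 in CNS (10.2%). The storage protein gene Lsp2 averaged -0.03 in salivary gland (SD 0.503, n = 3) and -2.41 in epidermis (SD 0.243, n = 3), against -4.24 for midgut (SD 1.11, n = 3), -4.28 for CNS (SD 0.462, n = 3) and -4.58 for wing disc (SD 0.105, n = 3). Fbp1, the receptor for storage protein uptake, averaged -0.65 in salivary gland (SD 1.29, n = 3) and -1.96 in epidermis (SD 0.475, n = 3). Its means lay between -3.13 and -3.69 in the other tissues. The salivary gland arrays of Fbp1, at -2.0 to 0.58, overlapped those of epidermis, at -2.48 to -1.56. Fbp2 ran from -0.31 in salivary gland to -3.67 in CNS. Lsp2, Fbp1 and Fbp2 thus had their highest means in salivary gland. Among the other markers the transferrin gene Tsf1 did not share that order, with means of -0.85 in epidermis, -1.29 in CNS and -2.02 in salivary gland (-0.46 from the other 4 tissues, adjusted p = 0.2).

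The median of the 7 markers was -0.27, -0.54 and -1.69 on the salivary gland arrays and -1.54, -1.72 and -1.57 on the epidermis arrays. It was -2.95, -3.01 and -3.16 in wing disc, -2.56, -2.75 and -2.97 in midgut and -3.01, -3.56 and -2.36 in CNS. Salivary gland replicate 3 had the lowest marker median of its tissue, and it also had the lowest value of its tissue for each of the 4 lipid genes (-3.46, -2.09, -1.12 and -1.51). Over the 15 arrays apolpp correlated with the marker median at r = 0.746 (rho 0.761), Lsd-1 at 0.569 (rho 0.529), Apoltp at 0.382 (rho 0.204, 14 arrays) and bmm at -0.0283 (rho 0.239). The mean ratio of the 7 markers to the whole animal was 0.526 to 0.864 on salivary gland arrays, 0.281 to 0.438 in epidermis, 0.196 to 0.242 in midgut, 0.182 to 0.199 in CNS and 0.127 to 0.154 in wing disc. The part of fat body RNA in the levels of the 4 genes was not tested.

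**Figure D4:**
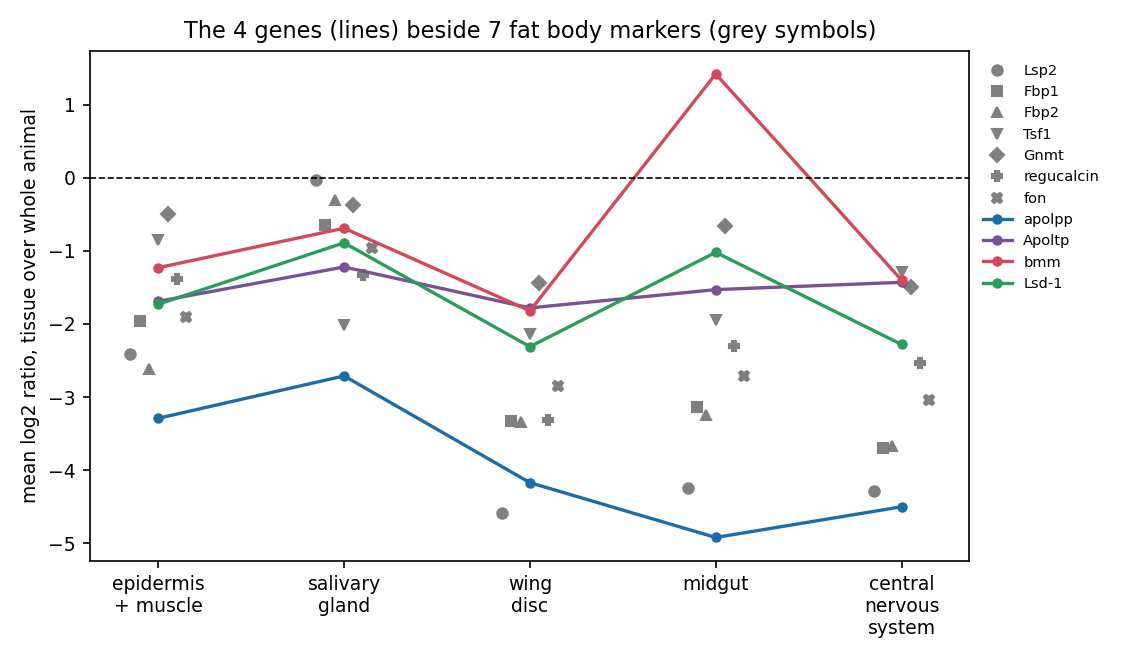
Mean log2 ratio of tissue over whole animal (vertical axis) in each tissue for the 4 lipid genes (coloured points) and 7 fat body markers (grey symbols); the lines only join the points of a gene, since tissues have no order. Most markers and apolpp have higher means in salivary gland and epidermis than in the other tissues, whereas bmm is highest in midgut at 1.42, where Lsp2 is at -4.24.

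Markers of hemocytes, the circulating blood cells, were examined in the same way. Of 10 tested, 1 was higher in epidermis, 1 in salivary gland and 1 in midgut than in the other tissues, 2 were lower in midgut and 1 in CNS. These counts are near the shares of all features, which were 8.11%, 7.72% and 14.2% higher and 15.5% and 10.2% lower in the same order. Their array medians ran from -2.78 to -1.84 in midgut and from -1.95 to -0.53 in salivary gland. Of 7 markers of oenocytes, the lipid-handling cells under the larval epidermis, 0 had a row measured here.

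Genes that load, carry and take up lipid were next compared as a list, which includes apolpp and Apoltp. This list and those that follow were written with earlier results of these data known. Their counts beside the shares of all features are therefore a description, not a test. Of 24 tested genes of lipoproteins, lipid transfer and their receptors, 20 passed the F test, against 44.5% of all features. In midgut 10 were higher than in the other 4 tissues and 1 was lower, against 14.2% and 15.5% of all features, with a median difference of 0.31 against -0.09 over all features. The 3 with the lowest F test p-values were genes of the Niemann-Pick type C2 family of sterol-binding proteins. Npc2d was higher in midgut by 4.71 log2 units (SE 0.388, adjusted p = 1.21e-07), Npc2f by 2.23 (SE 0.23, adjusted p = 1.7e-06) and Npc2a by 1.83 (SE 0.243, adjusted p = 2.57e-05). In wing disc 8 of the 24 were lower, against 10.3% of all features, and 0 higher.

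Of the direct partners of lipophorin, neither Mtp (-0.50, adjusted p = 0.448) nor LpR1 (0.16, adjusted p = 0.738) passed in midgut against the other 4 tissues. Mtp, which lipidates apolipoproteins during their secretion, was like apolpp below the whole animal in each tissue, with means from -1.25 in epidermis to -2.03 in midgut, and did not pass the F test (adjusted p = 0.74). LpR1, a lipophorin receptor, stood between 0.37 and 0.49 in epidermis, wing disc, midgut and CNS, and at -0.47 in salivary gland. Its salivary gland level was below that of the other 4 tissues by a log2 difference of -0.89 (SE 0.292, adjusted p = 0.0456), though the F test did not pass (adjusted p = 0.17). The second receptor gene, LpR2, was not analysed here. In salivary gland the carrier gene apolpp was higher and its receptor gene LpR1 lower than in the mean of the other tissues. The apolpp difference missed the threshold in 8 of 15 fits that each left out 1 array, and no such fits are given for LpR1. A relation between these genes was not tested.

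Of 12 tested genes of droplet proteins and lipolysis, 8 passed the F test (44.5% of all features), bmm and Lsd-1 among them. In midgut 7 of the 12 were higher (14.2% of all features), these 2 included, and 0 were lower, with a median difference of 0.98. Ldsdh1, a short-chain dehydrogenase of droplets, was higher in midgut by 3.65 (SE 0.394, adjusted p = 2.7e-06) and stood at 2.01 against the whole animal, where bmm stood at 1.42. Rab18, a small GTPase found on droplets, was higher there by 1.03 (SE 0.16, adjusted p = 0.00012). In wing disc 5 of the 12 were lower (10.3% of all features), and in CNS 4 (10.2%).

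Lsd-2, the other perilipin, was above the whole animal past the test in midgut alone, where Lsd-1 was below it. The midgut mean of Lsd-2 was 1.12 (SD 0.53, n = 3; adjusted p against the whole animal 0.00924). Its means were 0.72 in salivary gland (SD 0.81, n = 3; adjusted p 0.0593) and 0.65 in wing disc (SD 0.625, n = 3; adjusted p 0.082). They were 0.04 in CNS (adjusted p 0.927) and -0.64 in epidermis (n = 2; adjusted p 0.2). Lsd-2 was higher in midgut than in the other 4 tissues by 0.93 (SE 0.321, adjusted p = 0.0401) and lower in epidermis by a log2 difference of -1.27 (SE 0.375, adjusted p = 0.038). Midgut was above the mean of the other 4 tissues for both perilipin genes. The Lsd-1 difference missed the threshold without midgut replicate 1 (0.82, adjusted p = 0.0703) or replicate 2 (0.57, adjusted p = 0.198). No such fits are given for Lsd-2. In wing disc Lsd-1 was at -2.31 and Lsd-2 at 0.65, the latter not past the test against the whole animal. The lipase gene Hsl was not analysed here.

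Genes that digest dietary lipid had the largest median midgut difference of the 6 lists. Of 33 genes of digestive lipases found, 15 were measured widely enough to be tested, and 11 of these were higher in midgut (14.2% of all features) and 0 lower, with a median of 3.65. CG6271 was higher by 6.14 (SE 0.295, adjusted p = 6.49e-10), CG6283 by 4.65 (SE 0.256, adjusted p = 1.54e-09) and CG6296 by 4.13 (SE 0.263, adjusted p = 8.02e-09). The gene of the gut lipase magro, mag, was higher by 5.0 (SE 0.405, adjusted p = 9.88e-08), and was picked after its value was seen.

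Genes of fatty acid and triglyceride synthesis were higher in midgut in 13 of 25 tested cases (14.2% of all features) and lower in 0, with a median of 0.75. Fatp3, of the fatty acid transport protein family, was higher by 4.01 (SE 0.265, adjusted p = 1.18e-08), Agpat2, an acyltransferase of glycerolipid synthesis, by 3.16 (SE 0.286, adjusted p = 1.11e-06) and AcCoAS, the acetyl-CoA synthetase, by 1.27 (SE 0.199, adjusted p = 0.000135). AcCoAS and Fatp3 were at -3.17 and -3.20 in wing disc. Bmm and Lsd-1 also had their lowest means there, but neither differed past the test between wing disc and CNS (adjusted p = 0.601 and 0.982).

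Of 22 tested genes of fatty acid oxidation, 11 were higher and 4 lower in midgut (14.2% and 15.5% of all features; median 0.62). In CNS 0 were higher and 12 lower (10.2% of all features were lower; median -0.68, against -0.07 over all features). CG17597 was higher in midgut by 2.60 (SE 0.182, adjusted p = 1.8e-08) and the peroxisomal enzyme gene Mfe2 by 1.56 (SE 0.219, adjusted p = 4.52e-05). CG4594 was instead higher in salivary gland, by 2.01 (SE 0.173, adjusted p = 6.44e-07).

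Of 24 tested genes of the hormonal and transcriptional control of fat stores, 8 passed the F test, a smaller share than the 44.5% of all features. In midgut 5 were higher, near the 14.2% of all features, and 0 lower (median 0.18). The sugar-responsive transcription factor gene sug was higher in midgut by 3.06 (SE 0.411, adjusted p = 2.87e-05). Ilp2, an insulin-like peptide gene, was higher in CNS by 2.68 (SE 0.221, adjusted p = 9.98e-07), and ImpL2, the gene of a secreted insulin antagonist, was higher in epidermis by 2.22 (SE 0.226, adjusted p = 2.73e-06). Akh, the gene of the hormone that mobilises fat stores, and its receptor gene AkhR did not pass the F test (adjusted p = 0.13 and 0.911). Their tissue means lay between 0.11 and 0.82.

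**Figure D5:**
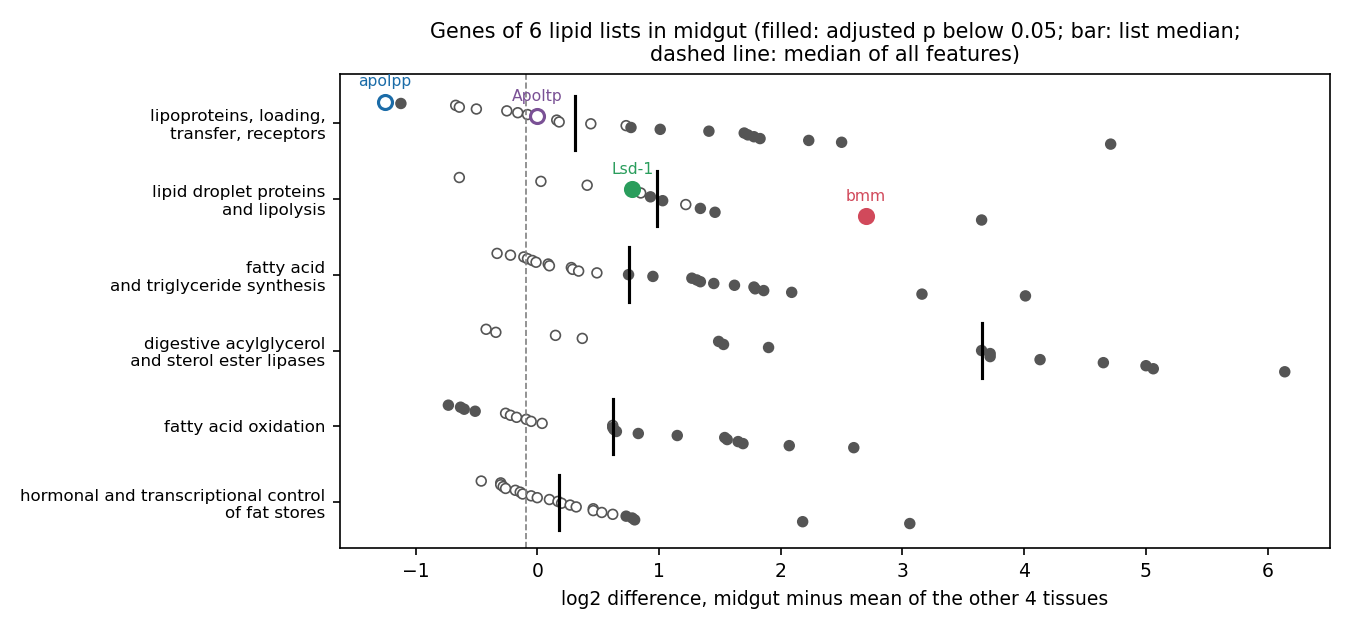
Log2 difference of midgut from the mean of the other 4 tissues (horizontal axis) for every tested gene of 6 lipid gene lists (rows); filled points passed the test, vertical bars are list medians and the dashed line is the median of all features at -0.09. Bmm (2.70) and Lsd-1 (0.78) lie to the right of that line with most droplet genes, Apoltp lies at 0.00 and apolpp at -1.25, and the digestive lipases reach 6.14.

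The genes most like each member were ranked by Pearson's r over shared arrays among 3024 named genes that passed the F test (2990 for Apoltp). As with all such values here, the arrays share a tissue in threes. Among the members that passed the F test, bmm had the closest matches. These were CG11309 (r = 0.969), CG3868 (0.959), CG10472 (0.943), the lysozyme gene LysP (0.936) and CG6277 (0.936), one of the listed digestive lipases. Lsd-1 was most like CG3534 (0.93), sel (0.926), Der-2 (0.921), ome (0.907) and the cystinosin gene Ctns (0.906). Apolpp was most like Der-1 (0.839), a gene of protein degradation at the endoplasmic reticulum, the cytochrome P450 gene Cyp6d2 (0.832), the serpin gene Spn43Ab (0.817), Cth (0.798) and the serpin gene nec (0.798 over 13 arrays). For Apoltp the highest values were lower than for the other members, from Nmda1 (0.585 over 13 arrays), CG14767 (0.582) and sll (0.573) to Sec31 (0.571) and Fak (0.57). The lowest correlations were with Nse1 (-0.932) and Naxe (-0.90) for Lsd-1, Stt3A (-0.908) and Ctf4 (-0.90) for bmm, CG42268 (-0.753) and CG17746 (-0.739) for apolpp, and BckdhB (-0.614) and Mybbp1A (-0.594) for Apoltp.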

How the data were processed

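The deposited values are log2 ratios of tissue (Cy5) over whole animal (Cy3), 1 column per array, with the dyes per the labels. The log base was read from the values, since 892 to 1126 pairs of values per array lay exactly 1 apart, against 1 to 5 at the natural logarithm of 2. The scanner, the background correction, the authors' normalization, the genome build and the reason for empty cells are likewise not stated in any source used here. RNA was amplified by in vitro transcription, per the labels' protocols, and unequal amplification of genes could change the ratios.

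Of 20000 rows, 14051 had a value, 10817 of them with 1 gene, 227 with several and 3007 with none. Symbols came from the array's annotation, and 10813 rows matched current gene records. Each array was centred on its median and rows of a gene were averaged, giving 13128 features. Then limma 3.58.1 (R 4.3.3) was run with a separate mean for each of the 5 tissues on all 15 arrays and empirical Bayes moderation (prior SD 0.338, prior degrees of freedom 5.965). A tissue needed at least 2 measured arrays. P-values were adjusted by Benjamini-Hochberg within each comparison. The fit was also run on simulated data in which features were changed in midgut alone. That run did not test the centring of arrays, and its result is not given here. Precision is limited by 3 arrays per tissue, and spread within the whole-animal reference does not enter the p-values.

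The 4 genes and the gene and marker lists were chosen with earlier results of these data known. The genes named were the 4 members, the 3 genes per list with the lowest F test p among those past it, stated partners of members whether or not they passed it, fat body markers, and the 5 most and 2 least correlated genes per member. Mag, Tsf1 and the genes overlapping members were named outside this rule, after their values were seen. Alternatives varied the centring, scaling, normalization, minimum of arrays, variance model, replicate block, rows and arrays used.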

Additional observations from a re-analysis of the deposited data

Results flagged for a closer look

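Bmm was above the whole animal on all 3 midgut arrays and below it on all 12 arrays of the other tissues. The difference of midgut from epidermis was 2.65 log2 units, from salivary gland 2.10, from wing disc 3.24 and from CNS 2.82, each past the limma test of the difference itself (adjusted p between 2.9e-06 and 0.000321). Midgut is included in the whole-animal reference, so the ratio above 0 compares midgut with an average that it is part of.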

How the results depend on the processing

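Of 2249 recomputed values, 2127 stayed on their side of the threshold or, for counts of features, within 1.5 times, 75 fell short of the threshold, 38 newly passed it, 9 counts of features moved by over 1.5 times and 0 reversed a value past the test. Among the 2127 are 59 single-gene values that changed sign while past the test neither before nor after. The midgut differences of bmm passed in all 25 settings, at 2.60 to 2.82 against the other 4 tissues (adjusted p 1.58e-08 to 2.98e-05). Values below are log2 differences, with limma's adjusted p where it bears on the call, and the cause of these changes was not tested.

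Apolpp in midgut against the other 4 tissues newly passed with arrays centred on the mean (-1.32), scaled to a common spread (-1.5), quantile normalized (-1.44), with array weights (-1.08) and with the replicate block (-1.25, adjusted p 0.0286). Its salivary gland value was lost under quantile normalization (1.0), and its F test without centring (adjusted p 0.0506) and under quantile normalization (0.0725). Its salivary gland minus CNS newly passed on features measured on all arrays, either for centring (1.89) or for the fit (1.79), and with array weights (1.92), as did epidermis minus midgut (1.14) and wing disc minus midgut (1.33) with these weights.

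Bmm in salivary gland against the whole animal was lost with mean centring (-0.61), centring on features measured on all arrays (-0.46), scaling (-0.63) and array weights (-0.51). In CNS against the other 4 it was lost without centring (-0.76), with scaling (-0.73), quantile normalization (-0.64) and array weights (-0.58). In epidermis it newly passed with scaling (-0.92), quantile normalization (-0.92) and array weights (-0.73). Salivary gland minus wing disc was lost with scaling (1.04) and quantile normalization (0.90). Array weights added epidermis minus salivary gland (-0.89), epidermis minus wing disc (0.79) and wing disc minus CNS (-0.91).

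Lsd-1 against the other 4 tissues was lost in CNS without centring (-0.74), with scaling (-0.60), quantile normalization (-0.41) and row 2 alone (-0.51), in wing disc with scaling (-0.61) and quantile normalization (-0.50), and in midgut with quantile normalization (0.46). Quantile normalization also lost salivary gland minus CNS (0.97), wing disc minus midgut (-0.77) and midgut minus CNS (0.70). Epidermis minus salivary gland newly passed with centring on features measured on all arrays (-1.01), scaling (-1.13), array weights (-1.05) and row 3 alone (-1.12), and epidermis minus midgut with scaling (-0.92), array weights (-0.89) and row 3 alone (-0.94). Row 1 alone lost salivary gland (0.65), wing disc (-0.04), midgut (0.40) and CNS (-1.10) against the other 4, salivary gland minus wing disc (0.55) and minus CNS (1.40), wing disc minus midgut (-0.35), midgut minus CNS (1.20) and the F test (adjusted p 0.199). With array weights more features passed, 3121 in epidermis, 3900 in wing disc and 3795 in midgut against the other 4, and 5946 in the F test. Epidermis replicate 2 had a weight of 5.984, against 0.37 and 0.355 for the others of its tissue. Wing disc replicate 2 had 5.451, against 0.624 and 0.52. With array weights, the values of these tissues therefore rest mainly on a single array each.

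Leaving out each array in turn, apolpp ranged from 1.18 to 1.88 in salivary gland and from -1.78 to -0.44 in midgut against the other 4, and its F test from an adjusted p of 0.0112 to 0.109. The F test missed the threshold without salivary gland replicate 1 or 2, CNS replicate 2 or 3, or epidermis replicate 2. The midgut value newly passed without salivary gland replicate 3, wing disc replicate 3 or midgut replicate 2. The salivary gland value was lost without salivary gland 1 or 2, epidermis 2 or 3, wing disc 1 or 3, or CNS 2 or 3. Apolpp ranged from 0.82 to 2.16 for epidermis minus midgut (newly past without midgut 2), from 1.0 to 2.13 for salivary gland minus wing disc (newly past without wing disc 2 or midgut 3), from 1.40 to 2.74 for salivary gland minus midgut and from 1.46 to 2.16 for salivary gland minus CNS (newly past without salivary gland 3, wing disc 2 or 3, or midgut 2 or 3). Bmm ranged from -1.19 to -0.41 in CNS against the other 4 (lost without salivary gland 1 or 2, wing disc 1 or 3, midgut 2 or 3, or CNS 1 or 3), from 0.88 to 1.35 for salivary gland minus wing disc (lost without salivary gland 1 or 2, or wing disc 2), from 0.31 to 1.08 for salivary gland minus CNS (newly past without CNS 2) and from -0.86 to -0.47 in salivary gland against the whole animal.

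Lsd-1 ranged, against the other 4, from 0.62 to 1.26 in salivary gland (lost without its replicate 1 or 2), from -1.03 to -0.67 in wing disc (lost without its 1 or 3), from 0.57 to 0.95 in midgut (lost without its 1 or 2) and from -1.0 to -0.53 in CNS (lost without wing disc 2, midgut 2, or CNS 2 or 3). It ranged from -1.15 to -0.51 for epidermis minus salivary gland (newly past without salivary gland 3) and from 0.99 to 1.47 for midgut minus CNS (lost without CNS 3). Against the whole animal it ranged from -1.21 to -0.58 in salivary gland (lost without its replicate 3) and from -1.23 to -0.85 in midgut (lost without its 3), and Apoltp from -1.61 to -0.79 in salivary gland (lost without its 3). Counts of features past the test against the other 4 ranged from 594 to 1152 in epidermis (lowest without its replicate 3), 825 to 1608 in salivary gland (without its 1), 1053 to 1781 in wing disc (without its 2) and 1159 to 1977 in CNS (without its 2, and 1182 without its 3).

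The replicate numbers were not taken as pairs, because no label ties a number to a shared batch or animal and 11 of 30 same-number correlations, not all, exceeded 0.1 (range -0.487 to 0.352). As a hint of pairing from the data alone, 9 of 15 arrays correlated best with their own number. With the replicate block, epidermis minus midgut (1.63, adjusted p 0.0384) and salivary gland minus CNS (1.79, adjusted p 0.022) of apolpp newly passed, beside its midgut value above, and no other call of the 4 genes changed.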
